A study of Aspergillus niger with 6 samples.

Results

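A group of 107 genes of Aspergillus niger was described whose transcripts stood highest 5 h after glucose was given to mycelium growing on willow. The genes were chosen by their own levels: read counts scaled to a common depth (CPM), using TMM-adjusted library sizes, had to reach 20 CPM in both glucose-added libraries, and the lower of these values had to be at least 2.5 times the highest value in the other 4 libraries. Of 14114 genes with an An identifier, 107 met both limits. High levels after glucose addition are therefore the choice itself and are given below as a description, without a test.

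All 6 libraries came from mycelium of strain N402, which was grown from spores in shake flasks, in duplicate cultures labelled A and B for each of 3 conditions. Cultures of the first condition (glucose 48 h) were harvested after 48 h in medium with 1% glucose. For the second condition (willow 24 h), mycelium from such a 48 h glucose culture was washed, and 1.5 g wet weight was moved for 24 h to medium with 1% ball-milled willow as the only carbon source. The last condition (willow 24 h + glucose 5 h, here called glucose-added) received the same treatment and then glucose for 5 h. The amount of glucose added is not given in the labels. A willow culture continued for 5 h without glucose is not among the samples, and the effect of the sugar therefore cannot be told apart from that of the extra 5 h. Carbon source, transfer to fresh medium and 24 h of further culture likewise differ together between willow 24 h and glucose 48 h.

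As background, A. niger is a filamentous fungus that secretes enzymes which take apart plant cell walls and storage polysaccharides. Glucose is its preferred sugar: in carbon catabolite repression, when glucose is present, the regulator CreA and its partners keep genes for the use of other carbon sources low. Glucose taken up by the hyphae passes through glycolysis to pyruvate, which is oxidised in mitochondria or, where oxygen is short, reduced to ethanol.

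All genes in the table together, not only the 107, had 434508 to 775667 counts per library. These were 1.46% to 3.15% of all reads, and 58.4% to 75.7% of reads had aligned to more than one place. Glucose-added library B was among the shallowest, so that 1 count was worth 2.27 CPM there against 1.25 CPM in library A. All 107 genes had counts in both glucose-added libraries, with at least 17 counts in library A and at least 9 in library B, and 23 of them had under 20 counts in library B. A count of 0 was found in at least 1 of the other 4 libraries for 30 genes, and all 107 were kept by the filter on low counts.

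Together the 107 genes took 1.41% and 1.35% of gene counts in the glucose 48 h libraries. They took 0.584% and 0.554% in the willow libraries and 5.65% and 5.44% in the glucose-added libraries. One gene, adhA, made up a large portion of these sums. Without it the shares were 0.720% and 0.671% in the glucose 48 h libraries, 0.467% and 0.450% in the willow libraries, and 3.60% and 3.51% in the glucose-added libraries. The median gene of the group stood at 13.97 and 12.2 CPM in the glucose 48 h libraries, at 12.02 and 13.1 CPM in the willow libraries, and at 88.5 and 95.3 CPM once glucose had been added. In whole mycelium, fewer cells of a type and less RNA per cell cannot be told apart.

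**Figure D1:**
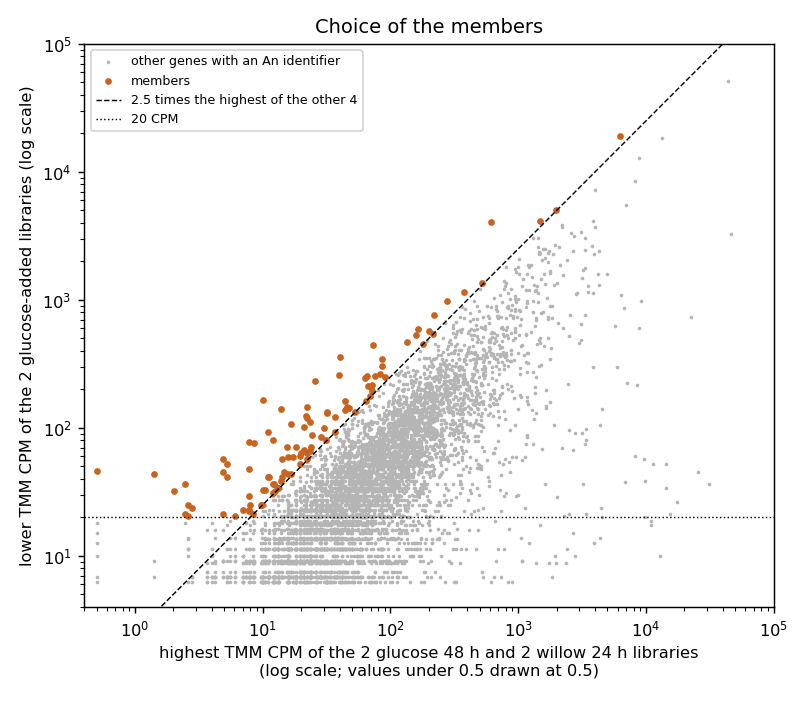
Lower of the 2 glucose-added values (TMM CPM, log scale) against the highest value of the 2 glucose 48 h and 2 willow 24 h libraries (TMM CPM, log scale, values under 0.5 drawn at 0.5), one point per gene with an An identifier. The 107 chosen genes (orange) lie on or above the dashed line of 2.5 times and the dotted line of 20 CPM, and most lie close to the dashed line, with a median ratio of 3.34.

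The ratio of the lower glucose-added value to the highest of the other 4 had a median of 3.34, with quartiles of 2.85 and 5.51. It was under 3 for 34 genes, at least 5 for 28 and at least 10 for 7. As a setting for this choice, 4027 genes with an An identifier had at least 20 CPM in both glucose-added libraries, 1013 of these (25.2%) had both values above the other 4 libraries, and the 107 chosen genes were 2.66% of them. The lower glucose-added value ran from 20.4 to 19159 CPM with a median of 79.8 CPM. It was at least 100 CPM for 47 genes and under 50 CPM for 36. Means of the glucose-added libraries were 6.85 times the willow means and 6.13 times the glucose 48 h means at the median gene.

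Values on either side of the limits differed little. Just inside the limit on the ratio were An18g05170 with a ratio of 2.503, An17g01170 with 2.507 and An15g04750 with 2.527. Just outside it were An01g04240 with 2.497, An02g00980 with 2.481 and An11g02850 with 2.478. At the limit on the level, An03g01740 and An07g06630 were inside with a lower glucose-added value of 20.4 CPM each and An15g07560 with 21.2 CPM. The nearest genes outside were An09g02510 with 18.7 CPM, and An01g11790 and An04g03090 with 18.2 CPM each.

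**Figure D2:**
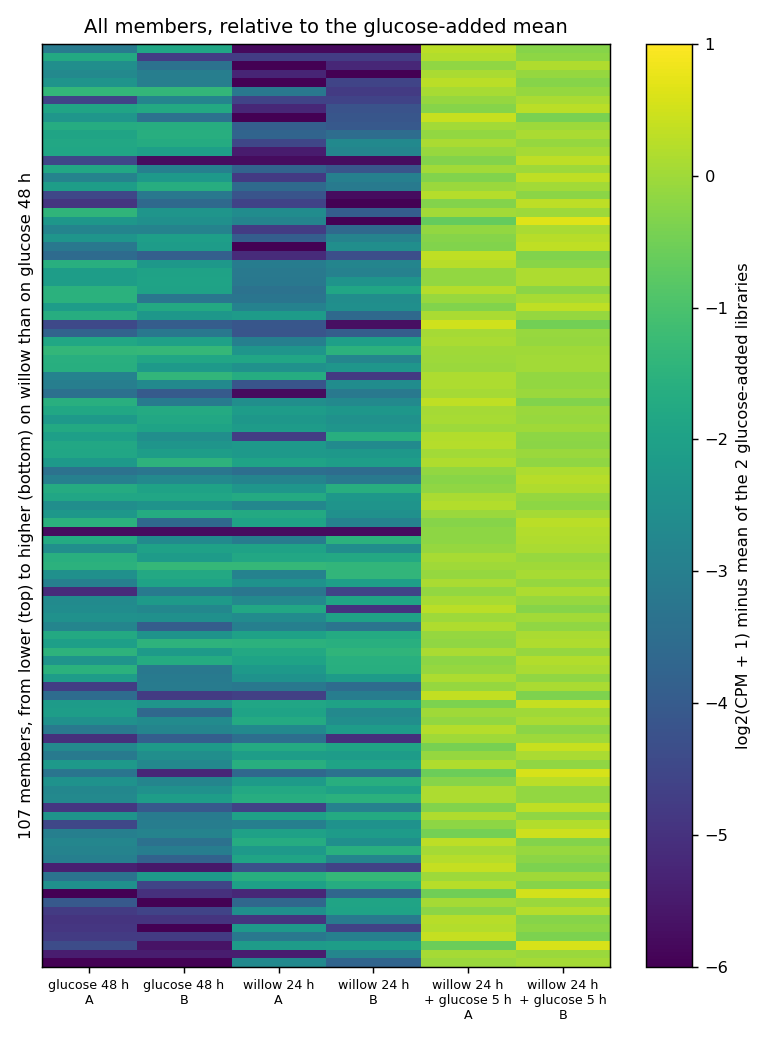
Level of each of the 107 genes in each of the 6 libraries, as log2(CPM + 1) minus the mean of the same quantity over the 2 glucose-added libraries (color scale), with genes sorted from lower to higher on willow than on glucose 48 h. The 2 glucose-added columns are bright throughout by the choice of the genes, while the 4 other columns differ from gene to gene, with some genes darker on willow (top) and others darker on glucose 48 h (bottom).

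RefSeq gives a symbol to 6 of the 107 genes. The other 101 are known here by identifier only, so no role is given to them. The 6 fall into sugar metabolism (pfkA and adhA), mitochondrial electron transfer (cyc), the release of sugars and phosphate (aglC and aphA) and the removal of hydrogen peroxide (catR).

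Phosphofructokinase, encoded by pfkA (An18g01670), catalyses the committed step of glycolysis. Its transcript stood at 81.0 and 165 CPM in the glucose 48 h libraries, 116 and 152 CPM in the willow libraries, and 677 and 588 CPM in the glucose-added libraries. The glucose 48 h and willow values of pfkA overlapped, and both glucose-added values lay above them. The glucose-added mean of pfkA, 632 ± 62.7 CPM (SD, n = 2), was 4.72 times the willow mean and 5.14 times the glucose 48 h mean. Alcohol dehydrogenase, the enzyme that interconverts acetaldehyde and ethanol, is encoded by adhA (An17g01530). Its transcript stood at 6135 and 6314 CPM on glucose 48 h, 1310 and 1189 CPM on willow, and 19803 and 19159 CPM after glucose addition. The 3 conditions did not overlap for adhA: willow was lowest, glucose 48 h was between, and the glucose-added cultures were highest by the rule. The glucose-added mean of adhA, 19481 ± 455 CPM (SD, n = 2), was 15.6 times the willow mean and 3.13 times the glucose 48 h mean.

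Cytochrome c, encoded by cyc (An02g01830), carries electrons between complexes of the mitochondrial respiratory chain. Its transcript stood at 18.2 and 33.0 CPM on glucose 48 h, 22.0 and 73.2 CPM on willow, and 447 and 715 CPM after glucose addition. Its 2 willow libraries were far apart and overlapped the glucose 48 h values. The glucose-added mean of cyc was 581 ± 189 CPM (SD, n = 2), which was 12.2 times the willow mean and 22.7 times the glucose 48 h mean.

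The gene aglC (An09g00260) encodes an alpha-galactosidase, an enzyme that removes galactose from plant galactomannans and galacto-oligosaccharides. Its transcript stood at 43.3 and 26.9 CPM on glucose 48 h, 58.1 and 70.6 CPM on willow, and 263 and 209 CPM after glucose addition. RefSeq gives the same symbol to the next locus, An09g00270, which was not analysed here. The gene aphA (An13g01750) encodes an acid phosphatase, which releases phosphate from organic compounds. Its transcript stood at 22.4 and 9.77 CPM on glucose 48 h, 20.0 and 15.7 CPM on willow, and 184 and 145 CPM after glucose addition. The glucose 48 h and willow values overlapped for aphA but not for aglC, whose willow values were both higher.

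Catalase R, encoded by catR (An01g01820), breaks down hydrogen peroxide. Its transcript had no count in glucose 48 h library A and stood at 2.44 CPM in library B, at 2.003 and 7.84 CPM on willow, and at 77.3 and 161 CPM after glucose addition. The glucose-added libraries of catR were 2.09-fold apart, yet the lower one was still 9.85 times the highest of the other 4. The glucose 48 h total of catR was too small for a firm fold: the ratio of summed counts, 82.1, had a 95% counting interval from 22.3 to 685.

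**Figure D3:**
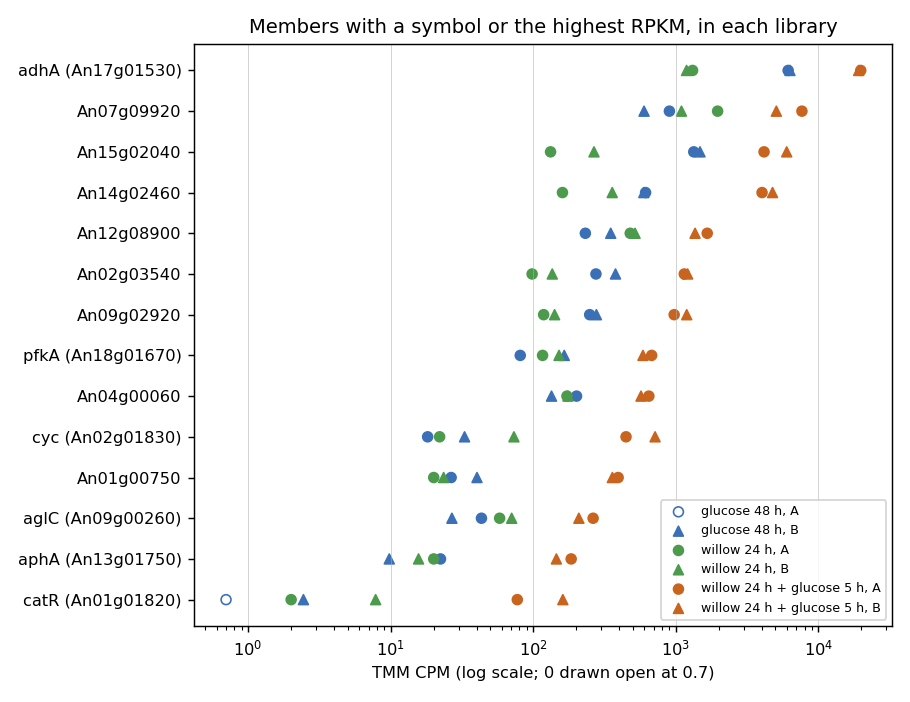
TMM CPM (log scale) in each of the 6 libraries for the 6 genes with a symbol and the 10 with the highest RPKM after glucose addition, 14 genes in all, with glucose 48 h in blue, willow 24 h in green and glucose-added in orange. Circles are library A, triangles library B, and the open circle for catR marks a value of 0. Willow lies to the left of glucose 48 h for adhA, An15g02040, An14g02460, An02g03540, An09g02920 and An01g00750 and to the right for An07g09920, An12g08900 and aglC.

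Genes of the same pathways that did not meet the rule were taken from lists of symbols. The list for glycolysis and ethanol metabolism held 5 such genes besides pfkA and adhA, all of them for glycolysis. Of these 5, 2 were called higher after glucose addition than on willow by edgeR's quasi-likelihood test, and none was called lower. Over all genes tested, 19.3% were called higher and 19.1% lower (38.4% either way). Glyceraldehyde-3-phosphate dehydrogenase (gpdA) differed by 1.57 on the log2 scale (adjusted p = 0.00161) and pyruvate kinase (pkiA) by 1.51 (adjusted p = 0.000909, same test). Against glucose 48 h, none of the 5 was called by the same test, beside 9.64% higher and 9.24% lower (18.9% either way) over all genes. The remaining changes against willow were 0.69 for tpiA, 0.70 for hxk and 0.45 for GlkA (log2), with adjusted p of 0.102, 0.219 and 0.33 in edgeR's quasi-likelihood test. The median of the 5 was 0.70 against willow and 0.50 against glucose 48 h, beside medians of 0.14 and -0.02 over all genes tested.

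The group held 1 of 34 plant wall degradation genes by symbol, aglC. Without aglC, 25 were tested by edgeR's quasi-likelihood test, and a gene was called where its adjusted p was under 0.05. Of these, 23 were called lower after glucose addition than on willow and none higher, beside 19.1% lower and 19.3% higher over all genes tested. Against glucose 48 h, 6 were called higher and none lower, beside 9.64% higher and 9.24% lower over all genes. The result against willow was in part set by the filter on low counts, which some of the 25 passed only through willow. One, pgaI, had 0 CPM on glucose 48 h, 54.1 and 47.0 CPM on willow, and 1.25 and 0 CPM after glucose addition. The median log2 difference of these 25 was -5.76 against willow and 1.13 against glucose 48 h, or 0.88 with genes at 0 counts set to their bound. The alpha-galactosidase genes aglB and aglA were among the 23: their glucose-added means were 188 and 76.0 CPM, with willow means of 1633 and 215 CPM and glucose 48 h means of 324 and 60.4 CPM. No gene for starch and inulin degradation, pentose catabolism, carbon regulation, amino acid synthesis, secretion or proteolysis that carried a listed symbol belonged to the 107. These lists were short, with 6, 1, 6, 8, 7 and 9 genes in that order, of which 3, 1, 5, 5, 5 and 8 were tested. Some listed genes, such as amyA and areA, had no count in any library and could not meet the rule. Of 3 starch and inulin genes tested, 3 were called higher after glucose addition than on willow and 1 was called higher than on glucose 48 h. The medians of the 3 were 1.99 and 0.95 (log2). Over all genes tested, 19.3% and 9.64% were called higher in these 2 comparisons. The gene called against glucose 48 h, inu1, missed the limit on the ratio at 2.26. It stood at 0 and 1.22 CPM on glucose 48 h, 6.01 and 13.1 CPM on willow, and 43.6 and 29.5 CPM after glucose addition. Because inu1 passed the filter on low counts only through its glucose-added counts, its calls were in part set by the filter. No symbol of the list for spore formation was in the table.

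Levels of different genes were compared as deposited RPKM, which divides by gene length. Mean RPKM after glucose addition ran from 0.247 to 410 over the 107 genes, with a median of 1.84. The highest was An15g02040, a gene of 282 bp, with a mean RPKM of 409.7, next to adhA with 361. An14g02460 followed with 68.8 RPKM, An01g00750 of 246 bp with 37.7, An09g02920 with 24.4, An07g09920 with 24.3 and cyc with 18.6. An04g00060 with 16.7 RPKM, An12g08900 with 15.3 and An02g03540 with 12.6 completed the first 10. An07g09920, the longest of the 107 genes at 6809 bp, and An01g00750, the shortest, were both among these 10. The 107 genes had a median length of 1342 bp, with quartiles of 982 and 1848 bp. The other genes with an An identifier and at least 20 CPM in both glucose-added libraries had a median of 1578 bp, with quartiles of 1041 and 2344 bp.

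These abundant genes differed in where they stood before glucose was added. An15g02040 stood at 1336 and 1477 CPM on glucose 48 h, 132 and 267 CPM on willow, and 4156 and 5993 CPM after glucose addition. An14g02460 stood at 613 and 596 CPM on glucose 48 h, 160.2 and 358 CPM on willow, and 4024 and 4767 CPM after glucose addition. Both genes, like adhA, had non-overlapping conditions in the order willow, glucose 48 h, glucose-added, where the last place was fixed by the rule. An02g03540 with 275 and 377 CPM on glucose 48 h, 98.2 and 136 CPM on willow, and 1146 and 1210 CPM after glucose addition had the same order. So did An09g02920, which stood at 249 and 277 CPM on glucose 48 h, 118 and 141 CPM on willow, and 973 and 1192 CPM after glucose addition. In An07g09920 willow, at 1963 and 1095 CPM, stood above glucose 48 h, at 901 and 598 CPM. After glucose addition this gene reached 7662 and 5069 CPM. An12g08900 likewise had its willow values, 479 and 518 CPM, above its glucose 48 h values of 232 and 349 CPM, and reached 1660 and 1364 CPM after glucose addition. Neither of these 2 differences between willow and glucose 48 h was called (adjusted p = 0.0602 for An07g09920 and 0.0935 for An12g08900, edgeR's quasi-likelihood test). An04g00060 had no clear order. The willow values of An04g00060, 172 and 175 CPM, lay between its glucose 48 h values of 201 and 134 CPM, with 647 and 570 CPM after glucose addition. The willow values of An01g00750, 20.0 and 23.5 CPM, were below its glucose 48 h values of 26.5 and 40.3 CPM, with 394 and 359 CPM after glucose addition, but this difference was not called by the test given below.

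The largest ratios belonged to genes with few counts elsewhere. An11g00820 had no count in the other 4 libraries and 46.1 and 61.3 CPM after glucose addition, from 37 and 27 counts. Against a floor of 3 counts over the 2 libraries of a condition, it was at least 15.8-fold higher than on willow and at least 27.5-fold higher than on glucose 48 h. An15g07190 had a single count in the other 4 libraries, in glucose 48 h library A, and 43.6 and 65.8 CPM after glucose addition. Among the 10 genes with the largest ratios, mean RPKM after glucose addition was highest in An11g00820 (4.001), An03g00830 (3.99) and An09g00170 (3.33). An09g00170 stood at 4.19 and 3.66 CPM on glucose 48 h, 10.0 and 7.84 CPM on willow, and 283 and 166 CPM after glucose addition, so that the glucose-added mean was 25.1 times the willow mean and 57.1 times the glucose 48 h mean. An03g00830 stood at 13.97 and 10.99 CPM on glucose 48 h, 4.01 and 7.84 CPM on willow, and 219 and 141 CPM after glucose addition. The other 6 with the largest ratios were catR, An07g00820, An03g00280, An08g09030, An04g09570 and An04g07840. Of these 6, none exceeded 7.84 CPM in any library of the other 2 conditions, and their lower glucose-added values were between 24.97 and 77.3 CPM.

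The rule used the lower of the 2 glucose-added values, so the distance between these replicates was not independent of the choice and is given as a description. The larger value was 1.23 times the smaller at the median gene, against 1.29 times for other genes with an An identifier and at least 20 CPM in both libraries, and 51 of the 107 were higher in library B. A difference of over 2-fold between the replicates was found in 5 genes, named after their values were seen. They were catR, An03g00280 with 73.5 and 36.3 CPM in libraries A and B, An12g00660 with 23.7 and 54.5 CPM, An12g01220 with 32.4 and 72.6 CPM, and An07g07080 with 67.3 and 170.3 CPM. The last was the widest, at 2.53-fold.

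Which condition came second was not fixed by the rule, which set one ceiling for willow and glucose 48 h together. The highest of the 4 other libraries was a glucose 48 h library for 60 genes and a willow library for 47. The 60 include 1 gene, An11g00820, that had no count in any of the 4 and so had no highest library. Willow was compared with glucose 48 h by edgeR's quasi-likelihood test in a fit of all genes and libraries, with Benjamini-Hochberg adjustment and a threshold of 0.05. Of the 107 genes, 4 were called higher on willow (3.74%), 13 were called lower (12.1%), and 90 were not called. Over all 6181 genes tested, 16.4% were called higher on willow, 15.7% lower and 32.1% either way. These shares cannot be set against those of the 107, because the filter on low counts let 59 of the 107 into the test only through their glucose-added counts. With willow and glucose 48 h libraries alone, 48 of the 107 passed the filter, and of the 17 called genes 10 were among these 48 and 7 were not. In that fit of only these 2 groups, 1 of the 48 was called higher on willow and 8 were called lower.

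**Figure D4:**
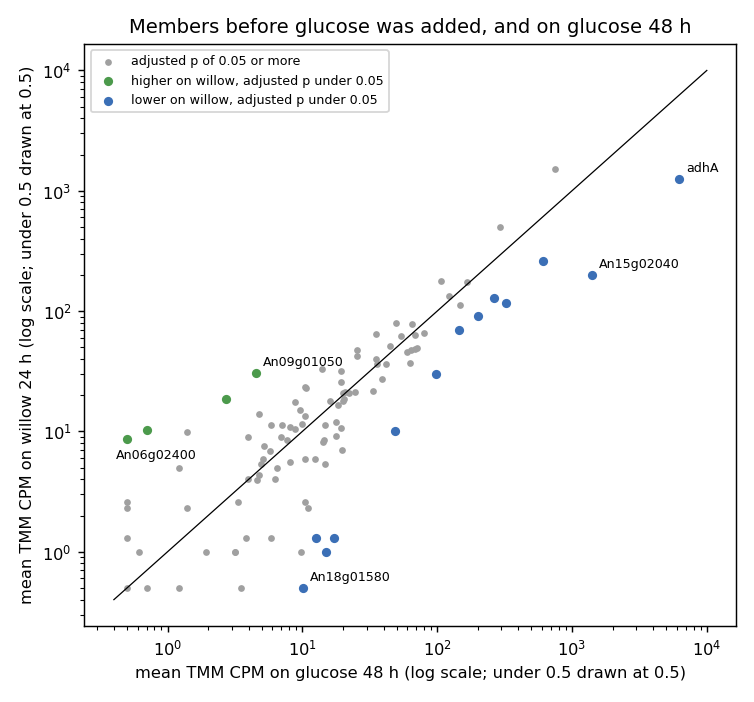
Mean TMM CPM of the 107 genes on willow 24 h against glucose 48 h (n = 2 libraries each, log scales, means under 0.5 drawn at 0.5), with the line of equal levels. Genes called by edgeR's quasi-likelihood test are green where higher on willow (4 genes) and blue where lower (13 genes), and adhA and An15g02040 stand out below the line at high levels. Of the 17 called genes, 7 passed the filter on low counts only through their glucose-added counts.

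Among the genes lower on willow, An15g02040 and adhA were called under every alternative processing tried. An15g02040 was lower by a log2 difference of -2.83 ± 0.43 (SE, adjusted p = 9e-06, edgeR's quasi-likelihood test), with 7.05 times higher mean CPM on glucose 48 h. The level of adhA on willow differed by -2.32 ± 0.45 (SE, adjusted p = 0.000227, same test), and its mean was 4.98 times higher on glucose 48 h. In both genes each glucose 48 h library was above each willow library.

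The steepest differences belonged to genes with almost no counts on willow, which passed the filter only through their glucose-added counts. These genes thus entered the test through the condition by which they were chosen, and their adjusted p is given as a description only. An18g01580 stood at 5.59 and 14.7 CPM on glucose 48 h and had no count on willow, so that it was at least 2.98-fold higher on glucose 48 h (adjusted p = 0.0127). An15g02030 stood at 22.4 and 12.2 CPM on glucose 48 h against 0 and 2.61 CPM on willow (adjusted p = 0.00564). Its ratio of summed counts, 14.9, had a 95% counting interval from 2.46 to 613. An14g02580 stood at 16.8 and 13.4 CPM against 2.003 and 0 CPM (adjusted p = 0.00774). An11g02430 stood at 15.4 and 9.77 CPM against 0 and 2.61 CPM (adjusted p = 0.0236). Each of these 4 calls, all by edgeR's quasi-likelihood test, was lost when a library was left out. Without willow library A the adjusted p was 0.0678 for An18g01580, 0.0894 for An15g02030 and 0.213 for An11g02430, and without willow library B it was 0.0664 for An14g02580. DESeq2 gave adjusted p of 0.0707 for An15g02030, 0.0925 for An14g02580 and 0.145 for An11g02430. Leaving out a glucose 48 h library also ended the call for An18g01580 (0.0767 without library B) and An11g02430 (0.078 without library A).

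Of the abundant genes named above, 3 more were called lower on willow. The log2 difference was -1.49 ± 0.36 for An02g03540 (SE, adjusted p = 0.00208), -1.23 ± 0.40 for An14g02460 (adjusted p = 0.0205) and -1.02 ± 0.35 for An09g02920 (adjusted p = 0.025) in edgeR's quasi-likelihood test. Without willow library A the adjusted p became 0.0508 for An02g03540, 0.315 for An14g02460, whose difference became -0.73, and 0.186 for An09g02920. The call for An09g02920 also ended without glucose 48 h library B (0.0855) and without willow library B (0.0819), with RLE factors (0.0525) and with DESeq2 (0.061). An15g07550 was lower by -1.68 ± 0.44 (SE, adjusted p = 0.00406, same test), and by -1 without glucose 48 h library A (adjusted p = 0.143). The other 3 genes called lower, An01g10030, An12g04880 and An04g02550, had log2 differences of -2.36, -1.14 and -1.05, and without willow library A their adjusted p was 0.123, 0.335 and 0.189 in the same test. The call for An12g04880 also ended with RLE factors, with DESeq2 (0.0791) and without glucose 48 h library B (0.0844). An04g02550 kept its call in 7 of 15 alternatives, with adjusted p up to 0.297 without glucose 48 h library A, and lost it without any one of 4 libraries: glucose 48 h A, willow A, willow B (0.0894) and glucose-added B (0.053).

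The 4 genes called higher on willow were at low levels in the 4 libraries compared. Of these, 3 (An18g02550, An06g02400 and An12g01220) passed the filter only through their glucose-added counts, so their adjusted p is likewise a description only. An09g01050 stood at 4.19 and 4.88 CPM on glucose 48 h, 24.0 and 36.6 CPM on willow, and 122 and 166 CPM after glucose addition. It was called under every alternative tried, with a log2 difference of 2.66 ± 0.62 (SE, adjusted p = 0.00155, edgeR's quasi-likelihood test), and the 3 conditions did not overlap. An18g02550 stood at 4.19 and 1.22 CPM on glucose 48 h and 32.0 and 5.23 CPM on willow, and its difference of 2.82 ± 0.82 (SE, adjusted p = 0.00944) came mainly from willow library A. Without that library the difference was 0.97 (adjusted p = 0.65), and without glucose 48 h library B it was 2.18 (adjusted p = 0.055), both by the same test. An06g02400 had no count on glucose 48 h and 12.0 and 5.23 CPM on willow, so that it was at least 4.41-fold higher there (adjusted p = 0.00476, or 0.0558 without willow library A). An12g01220 stood at 1.40 and 0 CPM on glucose 48 h and 10.0 and 10.4 CPM on willow (adjusted p = 0.0229, or 0.134 without glucose 48 h library B and 0.0804 with DESeq2), and the ratio of 15.7 had a 95% counting interval from 2.17 to 686. After glucose addition An18g02550 reached 174 and 134 CPM, and An06g02400 reached 79.8 and 86.3 CPM.

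Apart from adhA, no gene with a symbol was called between willow and glucose 48 h by edgeR's quasi-likelihood test. The log2 difference was 0.11 ± 0.37 for pfkA (SE, adjusted p = 0.857), 0.19 ± 0.57 for aphA (adjusted p = 0.839) and 0.87 ± 0.41 for aglC (adjusted p = 0.108). It was 0.83 ± 0.51 for cyc (SE, adjusted p = 0.226) and 1.67 ± 1.25 for catR (adjusted p = 0.326), from the same test. The sign for pfkA and aphA turned under another scaling, to -0.19 and -0.12 with total counts, and the difference for cyc was 1.52 (adjusted p = 0.0239) without willow library A and -0.16 without willow library B.

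Some of the 107 genes were neighbours in the RefSeq gene order. An adjacent member of the group was found for 12 of the 107 genes (11.2%), against 53 of 3911 other genes with an An identifier and at least 20 CPM in both glucose-added libraries (1.36%). Within 5 genes on either side the counts were 20 of 107 (18.7%) and 282 of 3911 (7.21%), and within 10 genes 33 (30.8%) and 524 (13.4%). The 12 genes formed 6 pairs, with no run of 3, and genes within 5 places of each other formed 9 groups of at most 3. Because the counting is not stated to use strand, reads from neighbours that overlap cannot be told apart.

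**Figure D5:**
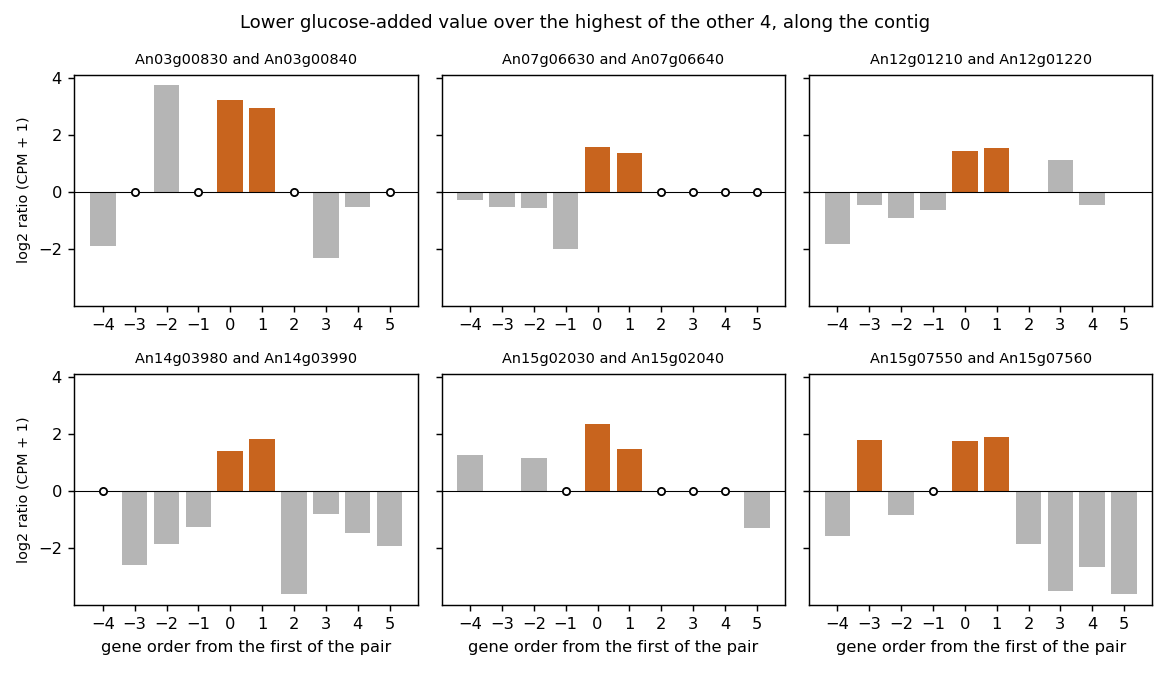
The 6 pairs of adjacent genes with the 4 genes on each side, in RefSeq order counted from the first gene of the pair (x axis), with the log2 ratio of the lower glucose-added CPM + 1 to the highest CPM + 1 of the other 4 libraries (y axis). Orange bars are genes of the group and gray bars other genes, while open circles mark genes where both values were 0. Most flanking genes have bars below 0 or circles at 0, and exceptions stand beside An03g00830, An12g01210 and An15g02030.

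The pair with the highest level was An15g02030 and An15g02040, described above, which were both called lower on willow than on glucose 48 h. An15g02030 stood at 120 and 149.8 CPM after glucose addition. An15g01980, 5 genes before An15g02030, also belonged to the group, with a glucose-added mean of 27.4 CPM and a ratio of 2.56. Between them, An15g01990 missed the limit with a ratio of 2.44. It stood at 19.6 and 44.0 CPM on glucose 48 h, 6.01 and 13.1 CPM on willow, and 107 and 109 CPM after glucose addition.

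An15g07550 and An15g07560 formed a pair, and another gene of the group, An15g07520, stood 3 genes before An15g07550. An15g07550 stood at 136 and 61.1 CPM on glucose 48 h, 34.1 and 26.1 CPM on willow, and 492 and 468 CPM after glucose addition. Its neighbour An15g07560 was near the lower limit, at 21.2 and 34.0 CPM after glucose addition and at most 4.88 CPM elsewhere. All flanking genes shown for this pair other than An15g07520 had ratios under 1 or no counts.

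An14g03980 and An14g03990 stood at 194 and 304 CPM and at 161 and 188 CPM after glucose addition. Elsewhere An14g03980 was between 32.0 and 72.1 CPM, and An14g03990 between 28.8 and 44.1 CPM. An12g01210 and An12g01220 stood at 306 and 247 CPM and at 32.4 and 72.6 CPM after glucose addition. In this pair both members had both willow values above both glucose 48 h values, although the difference for An12g01210, 0.71 ± 0.38 (log2, SE), was not called (adjusted p = 0.163, edgeR's quasi-likelihood test).

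In the pair An03g00830 and An03g00840, the second gene stood at 92.2 and 109 CPM after glucose addition and at most 10.99 CPM elsewhere. An03g00810, in front of this pair, had counts only after glucose addition, at 12.5 and 24.97 CPM, which was below the limit on the level. The sixth pair, An07g06630 and An07g06640, named after its values were seen, had the lowest levels, with glucose-added means of 22.1 and 53.5 CPM. One gene outside the group, An01g11790, stood beside the chosen gene An01g11800 and had counts only after glucose addition, at 38.6 and 18.2 CPM. Among 199 genes outside the group beside a chosen gene, it was the only 1 (0.503%) to meet the limit on the ratio with at least 5 CPM. Of the 13808 other genes with an An identifier outside the group, 22 (0.159%) did so.

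For comparison, the same rule applied to the other conditions gave 472 genes highest on willow and 124 highest on glucose 48 h. Among genes without an An identifier, 8 met the rule for the glucose-added condition and were left out of the 107. The one with the largest ratio, 27.8, was TID_46101, at 1.4 and 6.1 CPM on glucose 48 h, 2 and 0 CPM on willow, and 169.5 and 170.3 CPM after glucose addition.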

How the data were processed

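Each library was deposited with counts per gene and, per the file headers, RPKM values that the authors derived from them. The submitters' processing notes name HTSeq, with no version, and the aligner is not given in the sources used here. RNA was depleted of ribosomal RNA and read as SOLiD paired ends of 50 and 35 bp, per the labels' protocols. The authors' RPKM values were scaled to the sum over all entries, including 5 for reads not counted to a gene, so they move with the portion of reads that reach genes. These 5 entries (96.9% to 98.5% of reads) were left out here. Multiply aligned reads are not in the counts, so genes with near-identical copies are uncertain.

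Counts were scaled with TMM factors over all genes and passed through filterByExpr (minimum count 10, minimum total 15), which kept 6181 of 15431 genes. The quasi-likelihood test of edgeR 4.0.16 (R 4.3.3, glmQLFTest) was used, two-sided and with Benjamini-Hochberg adjustment. All 3 groups entered one fit without covariates, with 3 residual degrees of freedom and a biological coefficient of variation of 25.9%. Replicates A and B are duplicate cultures per the series' design text and differed beyond sampling noise (chi-square per degree of freedom 6.81 to 11.5). The standard error of a log2 difference was taken as its size over the root of F. The test was tried on simulated counts first. Bounds use a floor of 3 counts over the 2 libraries of a group. Ratios against 1 to 3 counts use counts summed over a group's 2 libraries and scaled by their summed TMM-adjusted library sizes, not mean CPM. These ratios have 95% exact intervals, and both bounds and intervals cover counting error only. Alternatives were other factors, filters, DESeq2 1.42.0, other samples in the fit, other limits of the rule, and each library left out.

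The genes and lists were chosen with earlier results of these data known. Named were genes with a symbol, the 10 highest by RPKM and by ratio, adjacent pairs, the 5 largest called changes each way, and genes at the limits. Symbols and gene order came from RefSeq (ASM285v2), which holds all 107 genes and gives symbols to 131 genes with an An identifier. Its build differs from that of the files, so no coordinates are given. Lists by gene product could not be applied, because product names were not used here.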

Additional observations from a re-analysis of the deposited data

How the results depend on the processing

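The 107 genes kept both glucose-added values above the other 4 libraries under each scaling tried. The lowest ratio was 2.26 with total counts and 1.21 with deposited RPKM. For the scaling factors this was largely set in advance, because the same counts had to meet the 2.5-fold limit. The number of genes that met the rule was 103 to 110 with other scaling factors. It was 55 with the 2.5-fold limit on deposited RPKM (46 shared), 191 with a ratio of at least 2 and 71 with at least 50 CPM. With a library left out it was 126 to 186: 173 without glucose 48 h A, 173 without glucose-added A and 186 without glucose-added B. Leaving out a library loosens the rule, so a rise was largely set in advance, and 96.3% to 100% of the 107 were kept. Between willow and glucose 48 h, 4 genes were called higher, but 2 with at least 50 counts in 2 libraries and 1 with only these groups fitted, each of which tested 48 of the 107, and 3 to 7 with a library left out (7 without glucose 48 h A). Called lower were 13, but 7 with DESeq2, 8 with only these groups fitted, and 5 to 13 with a library left out (5 without willow A). Of the 17 called genes, 3 were called in every alternative (adhA, An15g02040 and An09g01050). Log2 differences turned sign with a library left out for pfkA (range -0.31 to 0.72), aphA (-0.31 to 0.87) and cyc (-0.16 to 1.52), and with total counts for pfkA (-0.19) and aphA (-0.12). Where 1 library was left in a group, it was assumed to vary like the other groups.

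Over all genes, 1986 were called between willow and glucose 48 h, 2374 between glucose-added and willow, and 1167 between glucose-added and glucose 48 h. With at least 50 counts in 2 libraries, where fewer genes were tested, they were 1121, 1339 and 762. DESeq2 called 747 in the last contrast. With a library left out, 1431 to 2530 were called against willow (1431 without glucose-added A) and 583 to 1404 against glucose 48 h (583 without glucose-added A, 743 without glucose 48 h B). Total counts moved the median log2 difference of all genes by -0.31 between willow and glucose 48 h and by 0.20 against willow. The share of calls higher on willow was 51.1%, but 35.4% with total counts and 62.4% with DESeq2. The cause of these differences was not tested. A replicate block on the letters A and B gave 5 higher and 13 lower of the 107, and 2167, 2542 and 1388 calls over all genes. The correlations of the A minus B differences between conditions were -0.01, 0.10 and 0.14, so the letters were not taken to pair the cultures. Depth limits the genes with few counts: a floor of 3 counts corresponded to 1.96 CPM for glucose 48 h, 3.40 CPM for willow and 2.41 CPM for glucose-added libraries.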
